A study of Mus musculus with 52 samples.

Results

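Chromatin accessibility was examined at the promoters of the mouse zinc finger protein (Zfp) genes in mouse embryonic stem cells (mESCs). The members are all deposited promoter intervals whose RefSeq identifier belongs to a gene with a symbol made of Zfp and 3 or 4 digits, a rule that uses names and no measured value. It finds 245 promoters of 240 genes among 20633 promoters, or 1.19%, and 5 of the genes (Zfp217, Zfp219, Zfp516, Zfp672 and Zfp708) are represented by 2 promoters each. Each interval is 400 bp long, so levels can be compared between promoters without a correction for length.

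Zfp genes encode proteins with tandem C2H2 zinc fingers, each a short fold around a zinc ion that reads a few bases of DNA. Many carry a KRAB domain, which recruits the corepressor TRIM28 and through it heterochromatin, and in mESCs such proteins silence retroelements and protect imprinted regions. The genes have multiplied by local duplication and lie in clusters on a few chromosomes. KDM2A and KDM2B bind unmethylated CpG dinucleotides at CpG islands through a ZF-CxxC domain, which is a different kind of zinc finger from those of the Zfp proteins, and their long forms also hold a JmjC domain that demethylates histone H3 at lysine 36.

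Calibrated ATAC-seq (cATAC-seq), in which the Tn5 transposase tags open DNA, was performed on nuclei mixed with Drosophila SG4 cells as a reference. All 4 lines carry a tamoxifen-activated CRE recombinase, at the Rosa26 locus where the study's methods place it, and were either left untreated or given 800 nM 4-hydroxytamoxifen for 96 h. In Kdm2a/b-JmjC fl/fl cells, derived from targeted mice, treatment removes exons for the JmjC domain and with them the long forms of both proteins. In Kdm2a/b-CXXC fl/fl cells it deletes the ZF-CxxC domain of both proteins, in the Kdm2a-CXXC fl/fl line that of KDM2A and in the Kdm2b-CXXC fl/fl line that of KDM2B. There were 3 untreated and 3 treated libraries per line, and 4 and 4 for Kdm2a/b-CXXC, which makes 26 libraries described as biological replicates. Each genotype is 1 line, and where loxP sites were placed by CRISPR it goes back to 1 clone, so the genotype and the line cannot be told apart. The Kdm2a/b-CXXC line was made by targeting Kdm2a in Kdm2b-CXXC cells, so these lines are parent and derivative and not independent. Untreated cells of a line are its control, and no line without floxed alleles is among the 26 libraries, so effects of tamoxifen itself cannot be told apart from those of the deletions. The Kdm2a and Kdm2b promoter intervals lie outside the deleted exons, so these data hold no check of the deletions.

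Values are calibrated reads, that is, mouse reads in an interval after division by a size factor taken from the Drosophila reads of that library. The libraries held 1.49 to 3.03 M promoter reads (M, 1000000), with size factors between 0.718 and 1.41, and Zfp promoters took 1.56% to 1.74% of them. The median Zfp promoter held 94 to 191 reads in a library and the median of all promoters 58 to 108. Of 8 mESC marker genes 7 were found, and the medians of their promoters over the 26 libraries ran from 10.0 calibrated reads, at 1 of the Esrrb promoters, to 209 at Sox2. For 3 genes that mESCs keep closed, Alb, Ins2 and Myh6, the medians ran from 4.91 to 8.71, so the lowest mESC marker promoter lies close to the closed genes.

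The promoters at the ends of the range of levels are shown first, because their base composition differs. Each sequence runs from 200 bases before to 50 bases after the centre of the interval, 5′ to 3′ on the strand of the gene, from the mm10 (GRCm38.p6) reference of RefSeq, and capitals mark CpG dinucleotides. The highest mean untreated levels over the 4 lines belonged to Zfp143 (chr7:110061502-110061751, plus strand), Zfp574 (chr7:25077005-25077254, plus strand) and Zfp142 (chr1:74587979-74588228, minus strand), whose windows hold 15, 15 and 11 CpGs. The lowest belonged to Zfp957 (chr14:79247318-79247567, minus strand), Zfp663 (chr2:165362070-165362319, minus strand) and Zfp775 (chr6:48612980-48613229, plus strand), with 3, 4 and 1.
Zfp143: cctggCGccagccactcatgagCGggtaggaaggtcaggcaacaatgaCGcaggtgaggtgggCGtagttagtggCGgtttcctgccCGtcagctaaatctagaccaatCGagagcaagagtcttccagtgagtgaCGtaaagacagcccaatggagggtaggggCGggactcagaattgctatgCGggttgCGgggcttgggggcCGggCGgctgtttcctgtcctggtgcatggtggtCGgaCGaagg
Zfp574: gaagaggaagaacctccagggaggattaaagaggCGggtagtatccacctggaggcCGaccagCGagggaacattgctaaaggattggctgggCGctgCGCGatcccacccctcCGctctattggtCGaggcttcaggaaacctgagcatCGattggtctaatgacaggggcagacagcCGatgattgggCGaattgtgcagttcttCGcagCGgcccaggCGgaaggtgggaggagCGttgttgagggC
Zfp142: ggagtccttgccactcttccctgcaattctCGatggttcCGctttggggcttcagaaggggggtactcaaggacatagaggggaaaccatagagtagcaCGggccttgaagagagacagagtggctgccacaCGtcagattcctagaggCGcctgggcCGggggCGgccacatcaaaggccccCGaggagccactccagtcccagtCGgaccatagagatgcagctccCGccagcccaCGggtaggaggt
Zfp957: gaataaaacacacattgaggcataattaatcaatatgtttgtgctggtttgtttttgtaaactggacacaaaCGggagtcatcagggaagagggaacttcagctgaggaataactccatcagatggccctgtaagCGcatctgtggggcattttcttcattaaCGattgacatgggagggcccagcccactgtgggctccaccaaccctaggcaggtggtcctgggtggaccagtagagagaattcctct
Zfp663: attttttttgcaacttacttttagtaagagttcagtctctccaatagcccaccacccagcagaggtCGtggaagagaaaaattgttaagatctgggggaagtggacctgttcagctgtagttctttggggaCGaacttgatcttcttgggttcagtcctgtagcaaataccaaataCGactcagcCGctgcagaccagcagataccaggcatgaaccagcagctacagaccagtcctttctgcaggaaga
Zfp775: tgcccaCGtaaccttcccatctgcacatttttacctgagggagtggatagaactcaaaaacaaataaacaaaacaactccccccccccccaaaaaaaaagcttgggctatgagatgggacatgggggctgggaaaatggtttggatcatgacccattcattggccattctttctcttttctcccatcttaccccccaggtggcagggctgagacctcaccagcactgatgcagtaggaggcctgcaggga

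Neighbouring Zfp promoters can also be copies of one another. Zfp235 (chr7:24133963-24134212, plus strand), Zfp111 (chr7:24208100-24208349, minus strand) and Zfp108 (chr7:24254594-24254843, plus strand) lie in the same cluster on chromosome 7 and are shown because they are among the 3 most alike pairs of Zfp promoters by alignment score. Zfp235 and Zfp108 were 73.5% identical over 298 aligned bases of their intervals, and Zfp235 and Zfp111 were 71.9% identical over 338. Capitals mark, in Zfp235, the bases it shares with both others, and in Zfp108 and Zfp111 the bases shared with Zfp235.
Zfp235: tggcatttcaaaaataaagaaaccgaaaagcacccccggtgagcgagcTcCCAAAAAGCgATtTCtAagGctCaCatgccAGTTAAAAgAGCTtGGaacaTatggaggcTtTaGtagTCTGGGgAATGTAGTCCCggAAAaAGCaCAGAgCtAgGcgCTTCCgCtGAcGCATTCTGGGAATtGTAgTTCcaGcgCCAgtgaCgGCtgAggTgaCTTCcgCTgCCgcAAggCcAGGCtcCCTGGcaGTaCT
Zfp111: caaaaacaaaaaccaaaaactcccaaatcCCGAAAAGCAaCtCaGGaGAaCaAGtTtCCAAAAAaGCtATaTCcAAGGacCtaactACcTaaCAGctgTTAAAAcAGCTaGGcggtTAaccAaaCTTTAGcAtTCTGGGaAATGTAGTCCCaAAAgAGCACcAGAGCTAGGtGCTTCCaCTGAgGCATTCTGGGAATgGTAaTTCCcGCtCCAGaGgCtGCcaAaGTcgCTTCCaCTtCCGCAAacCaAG
Zfp108: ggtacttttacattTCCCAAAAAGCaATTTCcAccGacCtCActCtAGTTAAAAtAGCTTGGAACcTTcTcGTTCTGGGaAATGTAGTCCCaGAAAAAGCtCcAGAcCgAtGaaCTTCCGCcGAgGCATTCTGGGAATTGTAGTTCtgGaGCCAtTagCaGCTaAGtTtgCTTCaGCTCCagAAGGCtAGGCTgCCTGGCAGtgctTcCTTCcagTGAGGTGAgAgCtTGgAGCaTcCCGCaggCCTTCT

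The Zfp promoters with the smallest p-values after tamoxifen in Kdm2a/b-JmjC, described further on, were Zfp963 (chr8:69749913-69750162, minus strand) and Zfp946 (chr17:22424068-22424317, plus strand). Their windows hold 8 and 11 CpGs, again in capitals.
Zfp963: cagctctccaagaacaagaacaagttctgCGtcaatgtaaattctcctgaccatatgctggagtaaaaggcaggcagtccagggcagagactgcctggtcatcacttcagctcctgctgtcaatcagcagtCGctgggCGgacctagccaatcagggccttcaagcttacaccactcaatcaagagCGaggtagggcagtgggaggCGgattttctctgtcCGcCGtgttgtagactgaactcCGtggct
Zfp946: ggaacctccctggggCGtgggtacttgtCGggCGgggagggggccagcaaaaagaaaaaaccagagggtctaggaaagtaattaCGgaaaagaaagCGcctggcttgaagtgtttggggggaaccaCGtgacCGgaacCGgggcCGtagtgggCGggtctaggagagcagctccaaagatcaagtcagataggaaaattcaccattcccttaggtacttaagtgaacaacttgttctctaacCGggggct

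Zfp promoters were more accessible than the typical promoter in every untreated library. The median over Zfp promoters minus the median over all promoters, on the log2(calibrated reads + 1) scale, was 0.84 ± 0.023 in Kdm2a-CXXC (SD, n = 3), 0.75 ± 0.030 in Kdm2a/b-CXXC (SD, n = 4), 0.73 ± 0.023 in Kdm2b-CXXC (SD, n = 3) and 0.65 ± 0.0080 in Kdm2a/b-JmjC (SD, n = 3). Over all 26 libraries, treated ones included, the difference ran from 0.64 to 0.86, and it was many times larger than its spread between replicates. Over promoters with enough reads to be tested after tamoxifen it was smaller, at 0.47, 0.35, 0.46 and 0.29 in the same order of lines. Few Zfp promoters were closed. Only 4.08% to 6.12% of them, depending on the library, lay in the lowest 25% of all promoters and 31.4% to 41.6% lay in the highest 25%. Averaged over the untreated libraries of the 4 lines, which were calibrated separately, the quartiles of the Zfp levels were 81.4, 132 and 174 calibrated reads against a median of 78.0 for all promoters. The share above the 90th percentile of all promoters was 10.2% (25 promoters), close to that of all promoters.

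Zfp promoters also differed from others in CpG content. Of the Zfp promoters, 179 (73.1%) were CpG-rich, here meaning that GC made up at least 50% of the interval and that CpGs were present at 0.6 or more of the number expected from its base composition (the CpG ratio), against 11262 of 20630 promoters with a sequence (54.6%). The median CpG ratio was 0.75 for Zfp promoters and 0.67 for all, while the median GC contents, 61% and 60.25%, were close. Among CpG-rich promoters the Zfp median differed from that of all CpG-rich promoters by only -0.048 to 0.11 on the log2 scale in the 26 libraries. Among the others, 66 Zfp promoters of 9368, it was higher by 2.18 to 2.72, as the plot by library and CpG class shows. The latter classes also differ in composition, since promoters that are not CpG-rich range from a CpG ratio near 0 up to the threshold and few Zfp promoters lie at the low end.

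**Figure D1:**
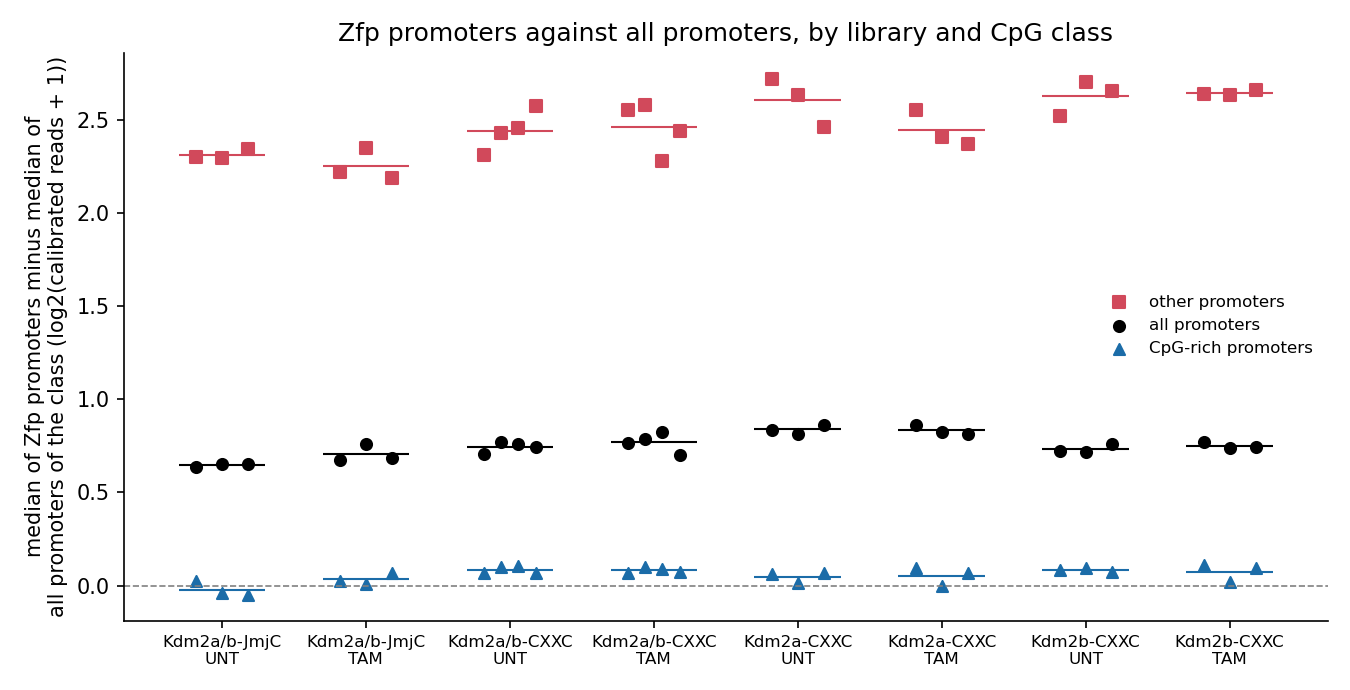
The y axis gives, for each of the 26 libraries, the median log2(calibrated reads + 1) of Zfp promoters minus the median of all promoters of the same class, and the x axis the line and treatment (UNT, untreated; TAM, tamoxifen). Each symbol is 1 library and bars are group means. Circles (all promoters) lie between 0.64 and 0.86, triangles (CpG-rich) between -0.048 and 0.11 and squares (other promoters) between 2.18 and 2.72.

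Bins of the CpG ratio narrowed the comparison. Between 0.4 and 0.6, where 43 Zfp promoters lie, the Zfp median was higher by 0.86 to 1.26 in the untreated libraries, with medians of 103 and 50.2 calibrated reads. Between 0.6 and 0.8 the 80 Zfp promoters were higher by 0.14 to 0.36, and between 0.8 and 1 the 84 Zfp promoters differed by -0.14 to 0.029. Below 0.2 and between 0.2 and 0.4, with 4 and 17 Zfp promoters, the difference ran from -0.36 to 0.72 and from -0.35 to 0.71 and so changed sign between libraries. At ratios of 1 and above the 17 Zfp promoters differed by -0.080 to 0.21. Zfp promoters thus exceeded others of like CpG ratio in every untreated library at ratios from 0.4 to 0.8 only. Across the 245 Zfp promoters the level was correlated with the CpG ratio at a Spearman rho of 0.298, against 0.756 over all promoters. These promoters are measured in the same libraries and are not independent, so no p is given.

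**Figure D2:**
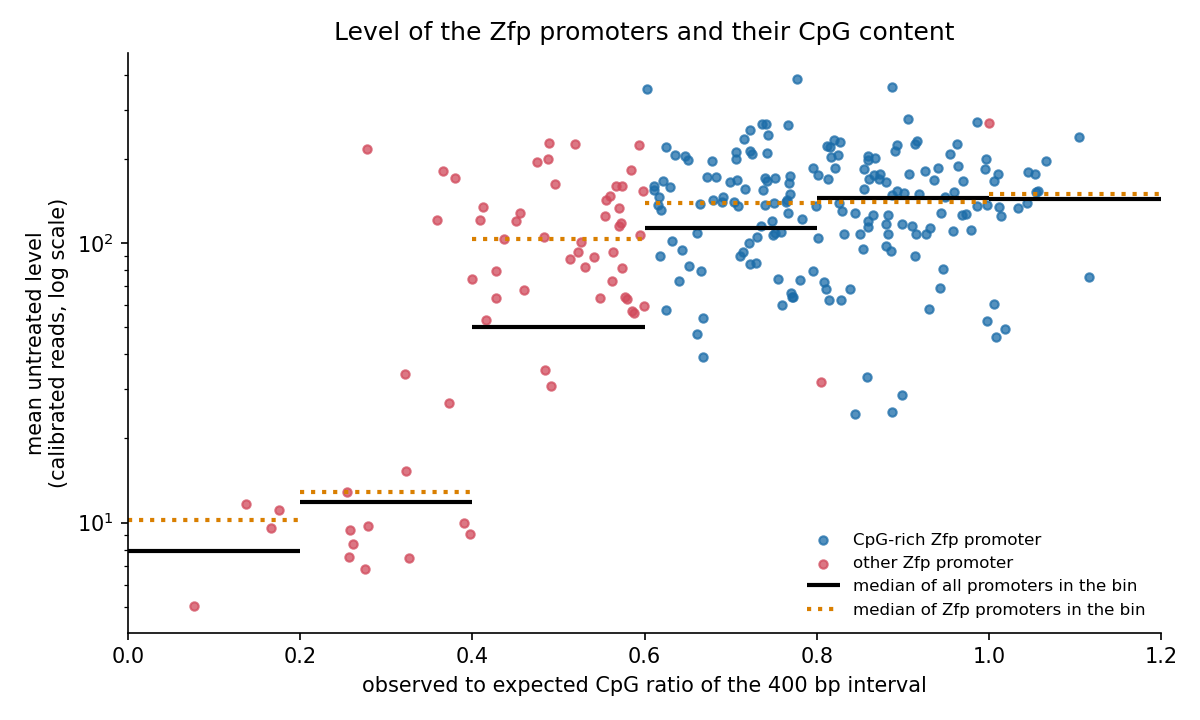
The x axis is the observed to expected CpG ratio of the 400 bp interval and the y axis the mean untreated level over the 4 lines in calibrated reads on a log scale. Each point is 1 of the 245 Zfp promoters (blue, CpG-rich; red, other), solid bars are medians of all promoters in a bin and dotted bars those of Zfp promoters. Between ratios of 0.4 and 0.6 the dotted bar, at 103, lies above the solid one at 50.2, and above 0.8 the bars nearly coincide.

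Levels among Zfp promoters spanned nearly 2 orders of magnitude. Zfp143, an activator of small nuclear RNA genes that is also needed in pluripotent cells, had 237 calibrated reads in its lowest, 353 in its median and 567 in its highest untreated library. Zfp574 had 205, 299 and 535, and Zfp142, which encodes the protein with the most zinc fingers of all members (37), had 187, 341 and 596. These 3 ranges overlap almost fully, so their order is not separated from the spread between libraries. At the other end, Zfp775 had 0 to 13 reads in the 26 libraries, with a median of 3.98 calibrated reads, Zfp663 had 0 to 13 with a median of 6.25 and Zfp957 had 2 to 21 with a median of 7.46. The medians of Zfp663 and Zfp957 lie within the range of the 3 closed marker genes and that of Zfp775 below it. In all, 10 Zfp promoters (4.08%) had a mean level under 10 calibrated reads, against 18.1% of all promoters, and none of the 10 was CpG-rich. Of the 10 most accessible, 9 were CpG-rich.

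The exceptions show that CpG content alone did not order the Zfp promoters. Zfp317, whose interval is not CpG-rich, had a mean level of 268 calibrated reads and was among the highest. Zfp811 on chromosome 17 reached 180 with 9 CpGs in its interval, and Zfp112 on chromosome 7 reached 171 with 12. In the other direction Zfp536, a regulator of neural differentiation, had 28.5 at a CpG-rich interval, and Zfp777, with 75 CpGs in its interval, had 60.6. The number of zinc fingers in the encoded protein, counted by its C2H2 spacing in 237 genes with a protein (median 10, none found in 9), was unrelated in rank to the level (Spearman rho -0.020 over 242 promoters).

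Short sequence cores that Zfp promoters hold more or less often than others were counted on both strands of the 400 bp intervals. The cores may overlap one another, and a match describes letters and not a bound site. The ETS core CCGGAAG was in 24.1% of Zfp promoters and 14.1% of all, and within CpG-rich promoters in 27.9% and 21.7%. ACTACAA, the core of the site that the ZFP143 protein itself reads, was in 8.98% and 3.82%, and within CpG-rich promoters in 7.82% and 3.83%. GCATGCGC, a core of the NRF1 site, was in 7.35% of Zfp promoters (18) and 3.93% of all, and TGACGTCA, the CREB site, in 4.90% (12) and 2.56%. Within CpG-rich promoters the differences were smaller, with the NRF1 core in 8.38% and 6.10% and the CREB site in 5.03% and 3.68%. Cores that were rarer in Zfp promoters were the TATA box TATAAA, in 4.90% against 10.4%, and the E-box CACGTG, in 7.35% against 9.54%. Within CpG-rich promoters the TATA box was no rarer (5.03% against 4.54%), while the GC box GGGCGG, in 61.2% against 56.3% of all promoters, was rarer there (74.9% against 82.7%). The CCAAT box was about equally common (39.2% and 40.0%), as was CTCGCGAG of ZBTB33 (1.22% and 1.47%). AAGATGGCG of YY1 was in 4.49% and 2.83%, and within CpG-rich promoters in 5.03% and 4.82%. Among the windows printed above, CCAAT is in those of Zfp143, Zfp574, Zfp663, Zfp775 and Zfp963, and ACTACAA or its reverse complement in those of Zfp235 and Zfp108.

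Zfp promoters were unevenly spread over the genome. Chromosome 7 held 66 of them (26.9%), which is 4.00% of its promoters, followed by chromosome 17 with 22, chromosome 8 with 19 and chromosomes 6 and 9 with 17 each. On chromosome 1 there were 4, 0.327% of its promoters. With neighbours less than 200 kb apart joined, 37 clusters held 128 promoters and the other 117 stood alone. The 18 clusters of at least 3 held 90. The median level was 147 calibrated reads in these 90 promoters, 99.4 in the 38 that form pairs and 126 in the single ones, with quartiles of 108 and 179, 63.9 and 147, and 73.7 and 179. The classes overlapped widely. The shares that were CpG-rich were 70%, 63.2% and 78.6%. Levels under 50 calibrated reads were found at 4 of the 90, 5 of the 38 and 18 of the 117, a difference that was not tested.

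The largest cluster lies at chr7:29815872-30169927 and holds 9 promoters, of Zfp790, Zfp940, Zfp420, Zfp383, Zfp568, Zfp566, Zfp260, Zfp382 and Zfp146. All lay above the median of all promoters (78.0), from 124 calibrated reads at Zfp940 to 266 at Zfp566. On chromosome 6, at chr6:47830306-48086793, 8 promoters ran from 60.6 at Zfp777 to 171 at Zfp956, and all 8 were CpG-rich. At chr17:32788088-33089566 another 8 ran from 82.3 at Zfp952 to 180 at Zfp811, although only 1 of them was CpG-rich. All 8 hold a CCAAT box, which is in 40.0% of all promoters, but some of the 8 are alike in sequence and so not independent. The 7 promoters at chr7:24081697-24254993, which include the 3 aligned above, ran from 59.4 at Zfp108 to 171 at Zfp112, and 4 of them hold the ACTACAA core. The lowest level in these 4 clusters was thus 59.4. Levels near those of the closed marker genes did occur in smaller clusters, as at Zfp583 (11.7), whose 3 neighbours at chr7:6155772-6330634 reached up to 235 at Zfp444, and at the second Zfp708 promoter on chromosome 13, NM_001012325 (9.11), beside a first one at 94.0.

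Copied promoters did not have to share a level. A local alignment of the 245 intervals found 58 alike pairs among 50 promoters, of which 40 lay on the same chromosome and 27 in the same cluster. The most alike by alignment score were Zfp369 on chromosome 13 and Zfp110 on chromosome 7, 82.6% identical over 172 bases, with mean levels of 150 and 214 calibrated reads. Zfp235 had a level of 105, against 59.4 at Zfp108 and 74.6 at Zfp111. Reads that map to more than 1 place were removed by the authors, so such promoters are represented by their unique reads alone.

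No Zfp promoter passed the thresholds after tamoxifen in any of the 4 lines. The thresholds were a Benjamini-Hochberg adjusted p under 0.05 from limma over all tested promoters and a fold change over 1.4, and between 237 and 241 of the 245 Zfp promoters had enough reads to be tested. In Kdm2a/b-JmjC 0 of 237 were called, against a background of 0.0757% (13 of 17174, all lower). In Kdm2a/b-CXXC 0 of 238 were called, in Kdm2b-CXXC 0 of 239 and in Kdm2a-CXXC 0 of 241, and the background was 0% in each. edgeR and DESeq2 on the recovered reads each called 1 Zfp promoter in Kdm2a/b-JmjC, where they called 114 of 17174 and 13 of 20633 promoters in all. In the other lines both called 0, at Zfp promoters or elsewhere. At an unadjusted p under 0.05 the counts were 42 in Kdm2a/b-JmjC (17.7%, all lower, against 20.6% of all promoters), 17 in Kdm2a-CXXC (7.05% against 8.39%), 3 in Kdm2a/b-CXXC (1.26% against 4.65%) and 0 in Kdm2b-CXXC (against 0.669%). None of these shares exceeded that of all promoters. Fold changes are on the log2(calibrated reads + 1) scale. In libraries of bulk cells, a promoter open in fewer cells and one less open in each cell cannot be told apart.

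The Zfp promoters shifted with promoters as a whole. The median log2 fold change over Zfp promoters was -0.17 in Kdm2a/b-JmjC and -0.20 in Kdm2a-CXXC, where that over all promoters was -0.21 and -0.18. It was 0.089 in Kdm2a/b-CXXC and 0.093 for Kdm2b-CXXC, where that over all promoters was 0.087 and 0.099. The Zfp promoters lay below 0 in 204 of 237 cases in Kdm2a/b-JmjC and 211 of 241 in Kdm2a-CXXC, but in only 70 of 238 and 65 of 239 in the other 2 lines. The median standard error of a single Zfp promoter was 0.18 and 0.20 in the former pair of lines and 0.19 and 0.37 in the latter, so a typical change of 1 promoter was about as large as its error or smaller. All 3 treated Kdm2a/b-JmjC libraries lay below all 3 untreated ones at 53 Zfp promoters (22.4%, background 23.2%), and all above at 0 (background 0.908%). In Kdm2a-CXXC these counts were 34 (14.1%, background 13.4%) and 1 (background 1.12%), in Kdm2a/b-CXXC 0 (background 0.597%) and 1 (background 1.8%) and in Kdm2b-CXXC 0 (background 0.446%) and 2 (background 2.13%).

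The values by library show how far this shift rested on single libraries. The median log2 ratio of the Zfp promoters to the untreated mean of the line was -0.030, 0.046 and -0.014 in the 3 untreated Kdm2a/b-JmjC libraries and -0.096, -0.25 and -0.18 in the treated ones. In Kdm2a-CXXC it was -0.085, -0.017 and 0.11 without treatment and -0.38, -0.17 and 0.010 with it. In Kdm2b-CXXC it was 0.40, -0.33 and -0.046, and 0.54, -0.16 and -0.043. Groups were apart in Kdm2a/b-JmjC only, where every treated library lay below every untreated one, and the widest spread within a group was in Kdm2b-CXXC. Taken by replicate number, each treated library also lay below the untreated one in Kdm2a-CXXC. In Kdm2b-CXXC each lay above it, though barely for the third (-0.043 against -0.046), and in Kdm2a/b-CXXC the direction was mixed. Whether the numbers mark a pairing is not known. In Kdm2a/b-CXXC the 4 untreated libraries lay between -0.061 and 0.075 and the treated ones at 0.41, 0.15, 0.0058 and -0.18. In each library the Zfp median was within 0.043 of the median of all tested promoters, as the plot of library medians shows. Scaling by TMM in place of the spike-in brought the Zfp median in Kdm2a/b-JmjC to 0.036 and in Kdm2a-CXXC to -0.024, but TMM centres the bulk of promoters by construction, and the Zfp promoters followed the bulk.

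**Figure D3:**
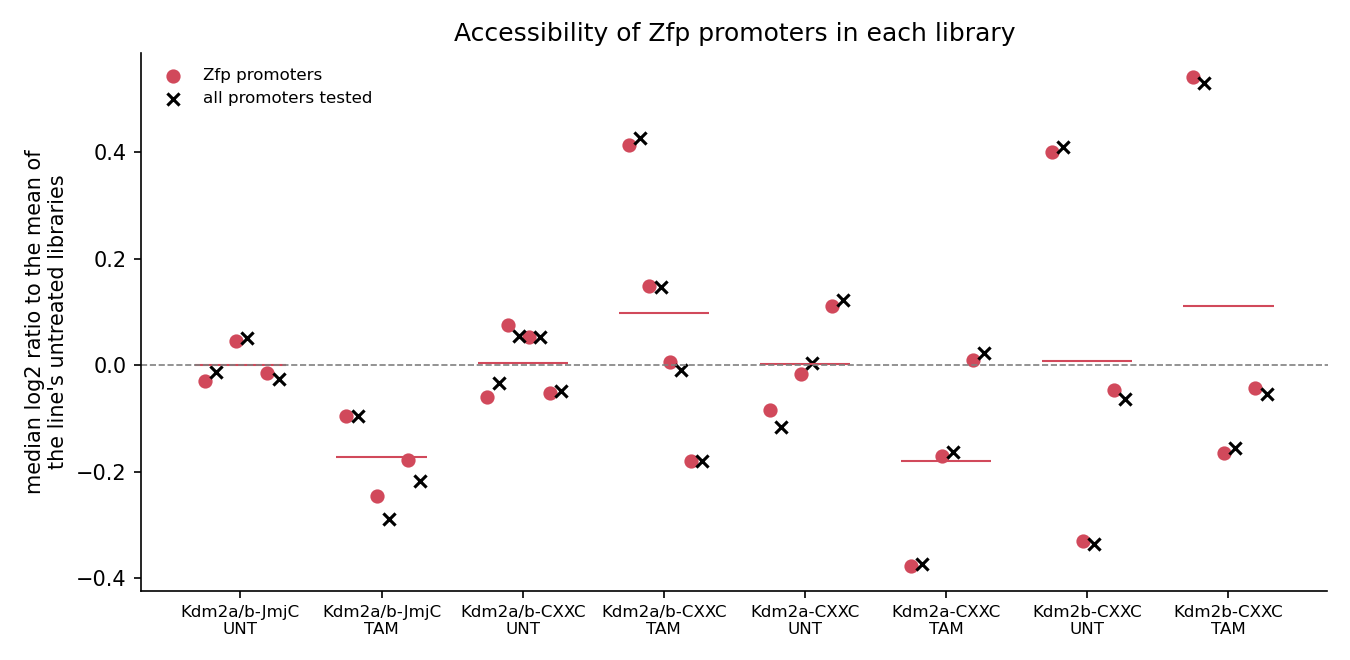
The y axis is the median log2 ratio of calibrated reads to the mean of the untreated libraries of the same line, and the x axis gives line and treatment (UNT, untreated; TAM, tamoxifen). Each circle is the Zfp median and each cross the median of all tested promoters in 1 library, with bars for the group mean of the circles. Circle and cross lie close together in every library, while libraries of a group range as widely as -0.33 to 0.40 in untreated Kdm2b-CXXC.

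Because the ZF-CxxC domain reads CpGs, Zfp promoters were also split by CpG class. In Kdm2a/b-JmjC the median log2 fold change was -0.17 at the 179 CpG-rich Zfp promoters and -0.18 at the 58 others that were tested, against -0.23 and -0.15 over all promoters of each class. In Kdm2a-CXXC it was -0.21 and -0.14, against -0.20 and -0.12. In Kdm2a/b-CXXC the medians were 0.091 and 0.085, against 0.089 and 0.080, and in Kdm2b-CXXC 0.077 and 0.13, against 0.093 and 0.12. Differences between the classes were not tested, and standard errors of single promoters do not measure the spread of such medians. At an unadjusted limma p under 0.05 were 19.0% of CpG-rich and 13.8% of other Zfp promoters in Kdm2a/b-JmjC, against 26.3% and 9.66% of all. The shares were 8.38% and 3.23% in Kdm2a-CXXC (against 9.48% and 6.51%) and 1.12% and 1.69% in Kdm2a/b-CXXC (against 3.52% and 7.13%). In Kdm2b-CXXC they were 0 in both classes of Zfp promoters (against 0.0533% and 1.71%).

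**Figure D4:**
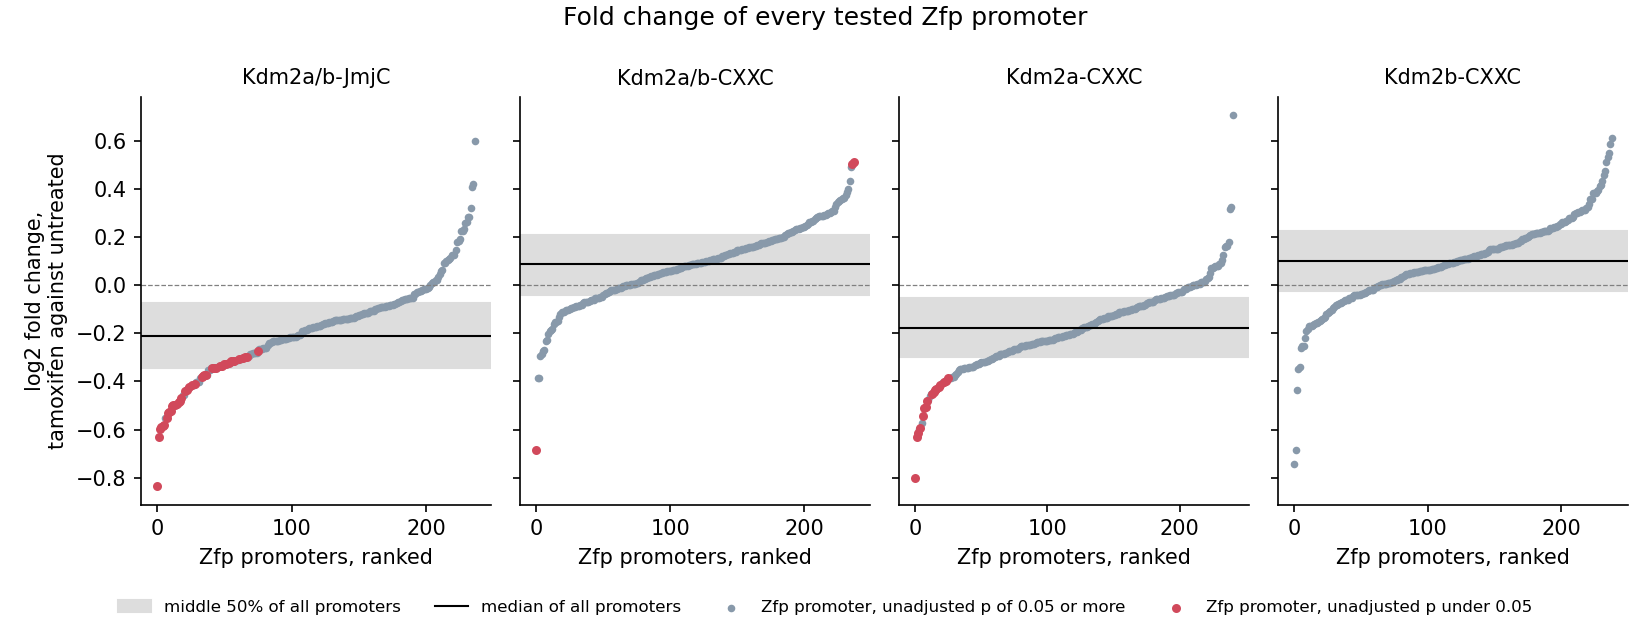
Each panel is 1 line, with the tested Zfp promoters ranked by log2 fold change on the x axis and the log2 fold change (tamoxifen against untreated) on the y axis. Grey bands mark the middle 50% and black lines the median of all tested promoters, and red points have an unadjusted limma p under 0.05. There are 42, 3, 17 and 0 red points, all 42 in Kdm2a/b-JmjC below 0.

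Zfp963 on chromosome 8 came closest to the threshold. In Kdm2a/b-JmjC it had 226, 290 and 233 calibrated reads without treatment and 183, 182 and 163 with it, or 249.6 ± 35.3 against 176 ± 11.4 (SD, n = 3 each). The groups did not overlap, and the log2 fold change was -0.50 with a standard error of 0.13 (limma, adjusted p = 0.059). It was the 1 Zfp promoter called by edgeR and by DESeq2, which gave 114 and 13 calls over all promoters, with an adjusted p of 0.042 from edgeR and 0.039 from DESeq2. In the other lines the log2 fold changes of Zfp963 were 0.15, -0.050 and 0.11. Over all tested promoters of Kdm2a/b-JmjC the median was -0.21, and 23.2% had every treated library below every untreated one. With TMM or median-of-ratios scaling in place of the spike-in, limma called 0 promoters in that line. The smallest adjusted p at a Zfp promoter was then 0.87 (limma). Zfp946 on chromosome 17 had 121, 121 and 107 calibrated reads without treatment and 69.4, 67.3 and 89.0 with it, again without overlap (log2 fold change -0.63, standard error 0.19, limma adjusted p = 0.073). Its fold change was 0.26 in Kdm2a/b-CXXC, -0.14 in Kdm2b-CXXC and -0.35 in Kdm2a-CXXC. Without the first treated Kdm2a/b-JmjC library, 7 Zfp promoters passed both limma thresholds, namely Zfp963, Zfp521, Zfp326, Zfp667, Zfp239, Zfp790 and Zfp773. They were 2.92% of those tested, against 3.39% of all promoters in the same fit.

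In the other lines the Zfp promoters with the smallest p-values did not pass the threshold in the limma fit without a replicate block. With a block, 3 of 241 passed in Kdm2a-CXXC (Zfp647, Zfp111 and Zfp668), among 188 of 17727 promoters in all. The values below are from the fit without it. In Kdm2a/b-CXXC, Zfp707 had 136, 109, 105 and 110 calibrated reads without treatment and 218, 160, 131 and 153 with it, at a log2 fold change of 0.50 with a standard error of 0.19 (limma, adjusted p = 0.996), and the groups overlapped by 1 library. In Kdm2a-CXXC, Zfp647 had 168, 183 and 168 against 95.0, 126 and 124, and Zfp111, one of the aligned promoters, 103, 104 and 111 against 51.4, 66.8 and 95.2. Their log2 fold changes were -0.59 and -0.61 (limma, adjusted p = 0.581 for both), without overlap between the groups. In that line every treated library lay below every untreated one at 13.4% of all tested promoters. In Kdm2b-CXXC, Zfp572 had 150, 94.9 and 86.0 against 87.7, 55.2 and 59.6, and Zfp300 63.4, 26.2 and 37.8 against 29.2, 19.7 and 22. Both pairs of groups overlapped, at log2 fold changes of -0.69 and -0.74 with standard errors of 0.36 and 0.42 (limma, adjusted p = 1.00 for both).

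Genes with known roles were taken from lists. The pluripotency list holds 6 genes with 7 promoters, at levels from 35.2 to 385 calibrated reads (median 125). None of the 7 was called in any line, and negative fold changes were found at 7 of them in Kdm2a-CXXC and 6 in Kdm2a/b-JmjC, but at 2 each in Kdm2b-CXXC and Kdm2a/b-CXXC. Over all tested promoters the shares below 0 were 81.2%, 83.4%, 28.9% and 31.97% in the same order. Zfp281, a partner of NANOG that restrains self-renewal, had 349, 363 and 286 calibrated reads in untreated Kdm2a/b-JmjC cells and 248, 258 and 256 in treated ones, which did not overlap (log2 fold change -0.38, standard error 0.12, limma adjusted p = 0.080). In Kdm2a-CXXC it had 312, 247 and 322 against 167, 223 and 260, which did. All treated libraries below all untreated ones were found at 23.2% of all tested promoters in Kdm2a/b-JmjC. Zfp217 has 2 promoters. The CpG-rich one, NM_001033299, had a mean level of 125 and a log2 fold change of 0.026 in Kdm2a/b-CXXC. The other, NM_001159683, had a level of 52.8 and was at 37.5, 31.9, 47.8 and 43.6 without treatment and 27.0, 22.9, 35.2 and 16 with it (log2 fold change -0.68, standard error 0.28, limma adjusted p = 0.996). In Kdm2a/b-JmjC they were at -0.42 and -0.55, and the difference between them was not tested. Zfp143 and Zfp207, a spindle protein also needed in mESCs, stayed within 0.19 of 0 in every line. Zfp296 and Zfp462 lay between -0.38 and 0.42 with standard errors of 0.23 to 0.38.

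KRAB proteins with known targets formed the silencing list, with 6 promoters at levels from 9.11 to 166 (median 113) and 0 calls. It comprises Zfp445, which maintains imprints, Zfp568, which represses a placental promoter of Igf2, Zfp809, which silences murine leukaemia virus, Zfp819, which acts on retroelements, and both promoters of Zfp708. Zfp932, the sixth gene listed, was not analysed here. Zfp809 was on the positive side in all 4 lines, at 0.11, 0.11, 0.13 and 0.061, each smaller than its standard error of 0.17 to 0.37. Zfp445 was on the negative side in all 4, at -0.33, -0.16, -0.034 and -0.16. The list median was -0.17, 0.11, -0.18 and -0.021 in the 4 lines, close to that of all Zfp promoters except in Kdm2b-CXXC.

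The developmental list, with 6 promoters and a median level of 82.2 (28.5 to 168), had 0 calls. In Kdm2a/b-JmjC all 6 fold changes were negative, with a median of -0.29, against 86.1% of the tested Zfp promoters and 83.4% of all promoters. The largest was at Zfp521, a regulator of neural differentiation, with 122, 162 and 124 calibrated reads without treatment and 101, 76.7 and 93.1 with it (log2 fold change -0.58, standard error 0.17, limma adjusted p = 0.077). It was at -0.12, -0.017 and -0.052 in the other 3 lines. Zfp423, which acts in fat cell and cerebellar development, had 46.6 ± 6.16 against 34.3 ± 3.15 in Kdm2a/b-JmjC (SD, n = 3 each), and positive values in the other lines. Zfp335, Zfp503, Zfp536 and Zfp703 had log2 fold changes between -0.34 and 0.28.

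Of the 4 RNA and ribosome related promoters, at a median level of 176 (128 to 244), 0 were called. Zfp326, a subunit of a complex that couples elongation to splicing, had 146, 131 and 132 calibrated reads in untreated Kdm2a/b-JmjC cells and 99.3, 72.0 and 102 in treated ones (log2 fold change -0.59, standard error 0.17, limma adjusted p = 0.075). Zfp598, a ubiquitin ligase that marks collided ribosomes, had 194, 175 and 172 against 127, 133 and 138 (log2 fold change -0.44, standard error 0.15, limma adjusted p = 0.105). Neither pair of groups overlapped. Every treated library lay below every untreated one at 23.2% of all tested promoters in Kdm2a/b-JmjC. By contrast Zfp106, an RNA-binding protein, was at -0.0082 and Zfp622, a factor of large ribosomal subunit maturation, at -0.029 in the same line. In the other 3 lines the 4 genes lay between -0.25 and 0.27.

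The 4 lines share no libraries, so their fold changes can be set side by side, although Kdm2a/b-CXXC was made from Kdm2b-CXXC cells. Of 234 Zfp promoters tested in every line, 23 were lower in all 4 (9.83%, against 8.70% of 16030 promoters) and 3 were higher in all 4 (1.28% against 1.87%). Across Zfp promoters the fold changes of pairs of lines were correlated at an r of -0.053 to 0.22, and across all promoters at 0.038 to 0.20. These are correlations across promoters, which are not independent. Whether a promoter responded differently in 2 lines was tested with the interaction term of a joint limma fit over 19621 promoters. None of the 6 pairs of lines gave a call, at Zfp promoters or elsewhere. The smallest adjusted p at a Zfp promoter was 0.656 (Zfp358, Kdm2a/b-JmjC minus Kdm2a/b-CXXC, -1.01). Between 0 and 15 Zfp promoters per pair (up to 6.12%) had an unadjusted p under 0.05, against 1.42% to 7.58% of all promoters. The Zfp share was the higher one only between Kdm2a-CXXC and Kdm2b-CXXC (4.49% against 3.63%).

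Without treatment the lines differed in some Zfp clusters. Each table has its own calibration, so reads per M promoter reads were used and no test was made. A promoter stood apart when all libraries of 1 line lay above, or all below, those of the other 3 lines and the mean differed by over 2-fold. By this measure 0 Zfp promoters stood apart, against a background of 1.6% of promoters in Kdm2a-CXXC, 0.31% for Kdm2a/b-JmjC, 0.199% for Kdm2a/b-CXXC and 0.102% in Kdm2b-CXXC. At 1.5-fold there were 5, 5, 5 and 0 in the same order, with backgrounds of 4.37%, 1.63%, 1.09% and 0.334%, and 5 of 245 is 2.04%. Zfp236 and Zfp248 were among them in 2 lines each. Zfp236 had 46.8 to 66.9 reads per M in Kdm2a/b-JmjC and 22.4 to 28.1 in Kdm2a-CXXC, and Zfp248 had 40.5 to 49.7 in Kdm2a/b-CXXC and 14.1 to 19.8 in Kdm2a-CXXC. The 5 in Kdm2a/b-CXXC (Zfp507, Zfp239, Zfp974, Zfp248 and Zfp422) all had higher values there and lie on chromosomes 6 and 7.

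The largest cluster on chromosome 7 differed between lines together with its surroundings. The 9 promoters at chr7:29815872-30169927 together held 1011 ± 30.5 reads per M in Kdm2a/b-CXXC (SD, n = 4), 867 ± 35.7 in Kdm2b-CXXC (SD, n = 3), 676 ± 6.49 in Kdm2a/b-JmjC (SD, n = 3) and 661 ± 27.5 in Kdm2a-CXXC (SD, n = 3). Kdm2a/b-CXXC libraries ran from 974 to 1047 and those of Kdm2b-CXXC from 835 to 905, above the 631 to 684 of the other 2 lines. The shift, the median log2 difference of a line from the other lines, was, in the same order, 0.35, 0.12, -0.23 and -0.26. The 30 other promoters within 500 kb of the cluster shifted by 0.39, 0.13, -0.28 and -0.28, and all promoters of chromosome 7 by 0.10, 0.035, -0.053 and -0.090. The difference was therefore shared by the region, Zfp promoters and neighbours alike, and was several times that of the chromosome. The 3 promoters at chr7:43562170-43607368, among them Zfp819, gave 0.39, 0.19, -0.26 and -0.32, with neighbours at 0.37, 0.13, -0.27 and -0.24. These clusters were chosen after their values were seen, and of the others on chromosome 7 some had the same signs and some did not. The same signs were found at chr7:7121277-7171552 (0.16, 0.15, -0.16 and -0.087) and, smaller, at chr7:12818661-12978047 (0.048, 0.066, -0.076 and -0.019). The 7 promoters at chr7:24081697-24254993 were at 0.050, -0.0051, -0.15 and 0.024. The 4 around Zfp583 were at -0.093 in Kdm2a/b-CXXC, where their neighbours were at 0.28. On chromosome 8 the 5 promoters at chr8:69624976-69775111, Zfp963 among them, were higher in Kdm2a/b-JmjC by 0.26, with neighbours at 0.24 and the chromosome at 0.27, so there the whole chromosome was shifted.

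**Figure D5:**
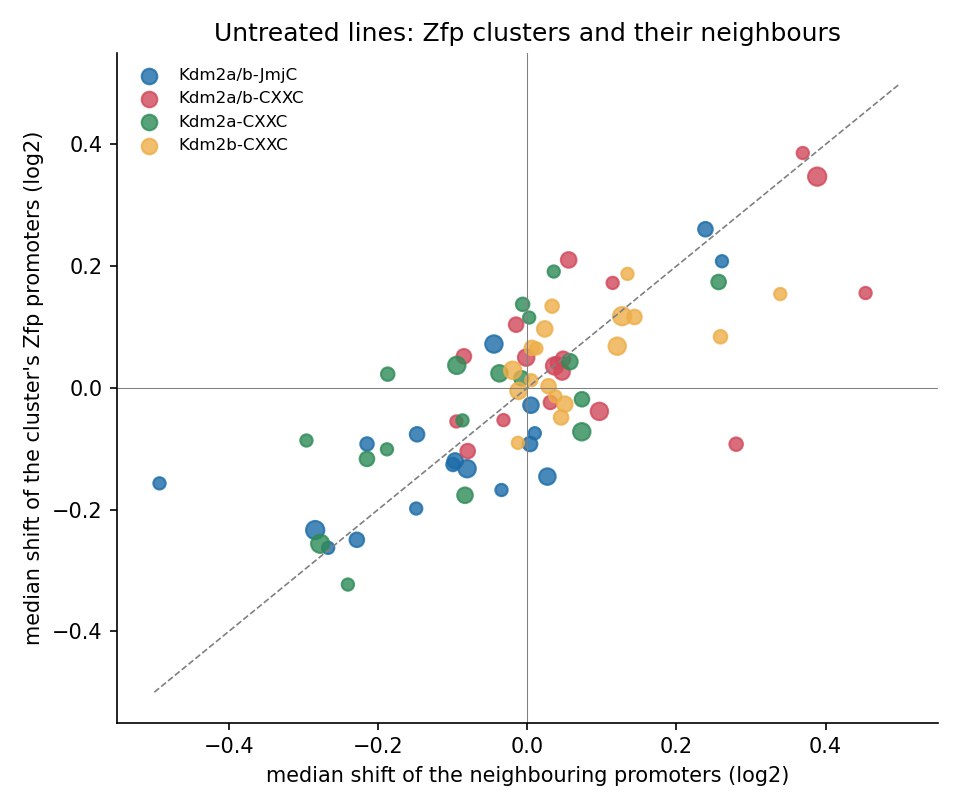
Each point is 1 of the 18 clusters of at least 3 Zfp promoters in 1 untreated line (colour), with larger points for clusters of more promoters. The y axis is the median log2 shift of its Zfp promoters from the other lines and the x axis that of the other promoters within 500 kb, both from reads per M promoter reads, and the dashed line marks equal shifts. The cluster of 9 on chromosome 7 lies near the line at 0.35 against 0.39 in Kdm2a/b-CXXC and at -0.26 against -0.28 in Kdm2a-CXXC.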

How the data were processed

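Libraries were grouped by line and treatment from the sample labels, and 26 genomic DNA libraries, which bring the samples to 52, were not analysed here. The authors aligned reads with Bowtie 2 to joined mm10 and dm6 genomes, removed duplicate, multi-mapped, mitochondrial and artefact-region reads, and counted mouse reads over 400 bp promoter intervals. Each deposited value is a signal, reads divided by a spike-in size factor from Drosophila reads corrected by genomic DNA. Dividing by the smallest step gave whole reads for 100% of values (within 0.1 read). The tables' own fold changes, standard errors, statistics and p-values of tamoxifen against untreated cells were not used.

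RefSeq identifiers were matched to symbols (99.1%) in the RefSeq annotation of GRCm38.p6, the same build, and coordinates are 1-based. Promoters with enough reads by the filterByExpr rule were kept, 1 was added to the calibrated reads, and each line's log2 values were fitted by limma 3.58.1 with its trend option. Alternatives were edgeR 4.0.16 and DESeq2 1.42.0 on the recovered reads, TMM and median-of-ratios scaling, other pseudocounts and filters, a replicate block and leaving out each library. Intervals were aligned with blastn 2.17.0. Fits were tested on simulated data, with planted changes well above the 1.4-fold threshold at promoters with more reads. No shift of whole libraries beyond the size factors was simulated, so changes as small as those reported here were not covered.

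The members and gene lists were chosen with earlier results of these data known. Promoters were named if they were in 4 role lists, had the 2 smallest p-values in a line, had the 3 highest or lowest levels, were the extremes of the 4 largest clusters, stood apart between lines or formed the 3 most alike pairs. Zfp317, Zfp583, Zfp444, Zfp358 and those named with counts at other thresholds were chosen after their values were seen. Some genes of the closed marker list are not reported here.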

Additional observations from a re-analysis of the deposited data

Results flagged for a closer look

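Dixon's test was run 96 times in the untreated and treated Kdm2a/b-CXXC groups of 4 libraries, over named promoters and Zfp medians. It flagged 2 promoters with a library far from the rest. Chance alone gives about 1 flag in 20 tests, so 2 flags are no more than chance would give. At Zfp574, untreated Kdm2a/b-CXXC replicate 1 had 205.4 calibrated reads, against 285.8 to 298.9 in the other 3. At Zfp819, untreated Kdm2a/b-CXXC replicate 4 had 97.78, against 122.5 to 122.8.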

How the results depend on the processing

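The count of 0 called Zfp promoters held in Kdm2a/b-CXXC and Kdm2b-CXXC under every alternative. In Kdm2a/b-JmjC it was 1 by edgeR and 1 by DESeq2, with 114 and 13 calls over all promoters. Without 1 library each it was 0 to 7, where the 7 (2.92%, against 3.39% of all promoters) came from dropping the first treated library. For Kdm2a-CXXC it was 3 of 241 with a replicate block (Zfp647, Zfp111 and Zfp668), which called 188 of 17727 promoters in all, a similar share. Whether the replicate numbers mark a pairing is not settled here. Same-numbered libraries deviated together over promoters at correlations of only -0.009 to 0.073, but this measure leaves out shifts of whole libraries. Those shifts kept the same order of replicates after treatment in Kdm2a-CXXC and Kdm2b-CXXC, but not in Kdm2a/b-JmjC or Kdm2a/b-CXXC. By the correlations every library was closest to its own number in Kdm2a/b-JmjC, which is a hint from the data and not the design. The block gave 0 Zfp calls in the 3 lines other than Kdm2a-CXXC. At an unadjusted limma p under 0.05 it gave 60 Zfp promoters in Kdm2a-CXXC and 27 in Kdm2b-CXXC, against 17 and 0 without it. In Kdm2a/b-JmjC and Kdm2a/b-CXXC these counts stayed at 42 and 3. The share of all promoters at this level was not counted with the block, so these counts cannot be read as a response of Zfp promoters.

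The median fold change over Zfp promoters became 0.036 with TMM and 0.038 with median-of-ratios scaling in Kdm2a/b-JmjC, and -0.024 and -0.022 in Kdm2a-CXXC.

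The Zfp level above all promoters, in the order Kdm2a/b-JmjC, then Kdm2a/b-CXXC, then Kdm2a-CXXC, then Kdm2b-CXXC, was 0.94, 1.06, 1.04 and 1.08 with means in place of medians, 0.62, 0.71, 0.81 and 0.71 with a pseudocount of 5, and 0.29, 0.35, 0.47 and 0.46 over promoters that pass the filter. Among CpG-rich promoters it was -0.021, 0.085, 0.048 and 0.085, and among the others 2.31, 2.44, 2.60 and 2.62, a split chosen after seeing the data. In Kdm2a/b-JmjC it was 0.71 in treated libraries and 0.63 without promoters that overlap another interval. Without 1 library each it kept to 0.64 to 0.65, 0.74 to 0.76, 0.83 to 0.85 and 0.72 to 0.74.

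Without 1 library each, the Zfp median minus that of all promoters ran from 0.012 to 0.046 in Kdm2a/b-JmjC, -0.0095 to 0.019 in Kdm2a/b-CXXC, -0.017 to 0.0049 in Kdm2a-CXXC and -0.013 to 0.011 in Kdm2b-CXXC, so it had no fixed sign in the last 3. The Zfp median itself ran from -0.21 to -0.13, -0.015 to 0.19, -0.29 to -0.089 and -0.12 to 0.29.

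Of Zfp promoters that stand apart between untreated lines there were 13 at 1.5-fold (5.31%, against 6.99% of all promoters), 1 in treated libraries (Zfp957, 0.408% against 1.95%) and 0 to 2 without 1 library each. Median standard errors of 0.18 to 0.37 on the log2 scale limit what can be seen at single promoters.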
